A study of Homo sapiens with 24 samples.

Results

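The genes of the interferon gamma (IFNg) receptor, of the Janus kinases (JAKs) behind it, of STAT2 and STAT3 and of 3 SOCS family inhibitors were followed in HepG2, an established line from a human liver tumour. The members were chosen by gene symbol: IFNGR1, IFNGR2, JAK1, JAK2, STAT2, STAT3, SOCS1, SOCS3 and CISH. All 9 were found among the 26475 gene symbols of the count files. RNA was sequenced in 24 libraries, 3 for each of 8 groups: the solvent DMSO, the BET inhibitor ABBV-075 (50 nM), the BET inhibitor ABBV-744 at 50 nM or 500 nM, IFNg, and IFNg together with each of these 3 inhibitor treatments. ABBV-075 was given for 12 h. The methods of the study name 24 h for DMSO and for inhibitors not used here, without saying which DMSO libraries these were. Treatment time may therefore differ between ABBV-075 and DMSO, and its part in the results was not tested. The times of ABBV-744 and IFNg and the dose of IFNg are not given in the sources used here. The libraries of a group are triplicates of 1 cell line, and no label ties them to separate cultures, so that p-values measure the spread between these libraries, which may be technical.

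IFNg binds a receptor made of IFNGR1, which holds the ligand, and IFNGR2, which completes the signalling complex. JAK1 sits on IFNGR1 and JAK2 on IFNGR2, and both phosphorylate STAT transcription factors that move to the nucleus and bind the gamma activated site (GAS). STAT2 is best known from the type I interferon response, where it joins IRF9 in a complex that binds the interferon stimulated response element (ISRE), and STAT3 carries the signals of the IL6 cytokine family, which drive the acute-phase response of hepatocytes. SOCS1, SOCS3 and CISH are feedback inhibitors that STAT proteins switch on: SOCS1 and SOCS3 block the kinases, and CISH blocks the docking of STATs at receptors. BET proteins bind acetylated histones and promote transcription. ABBV-075 inhibits both bromodomains of these proteins, and ABBV-744 prefers the second bromodomain.

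The promoter windows of the members were searched for both sites, because STAT2 and SOCS1 rose with IFNg. RefSeq (build GRCh38.p14) held 16 windows of 300 bases for the 9 members, and 4 members had more than 1 window. GAS was searched as TTCNNNGAA and ISRE as GAAA, any 2 bases and GAAA, on both strands, with no overlap between matches in these windows. Of 35116 promoter windows, 7.66% held the GAS letters and 3.57% the ISRE letters. Among the members, 1 window held GAS (CISH) and 1 held ISRE (SOCS1), and the other 14 held neither. SOCS1, whose window is chr16:11256155-11256454 on the minus strand, is shown because the gene rose with IFNg, and STAT2 (chr12:56360058-56360357, minus strand) because it rose without a match to either site in its window. CISH (chr3:50611725-50612024, minus strand) is shown because it held the most matches and was counted least. Capitals mark the matches, which describe letters and not bound sites.
SOCS1: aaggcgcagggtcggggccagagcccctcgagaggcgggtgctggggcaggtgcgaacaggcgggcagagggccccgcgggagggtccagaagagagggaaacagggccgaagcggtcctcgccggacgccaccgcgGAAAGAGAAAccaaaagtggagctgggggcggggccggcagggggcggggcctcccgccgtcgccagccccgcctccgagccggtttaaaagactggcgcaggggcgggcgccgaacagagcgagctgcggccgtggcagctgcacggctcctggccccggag
STAT2: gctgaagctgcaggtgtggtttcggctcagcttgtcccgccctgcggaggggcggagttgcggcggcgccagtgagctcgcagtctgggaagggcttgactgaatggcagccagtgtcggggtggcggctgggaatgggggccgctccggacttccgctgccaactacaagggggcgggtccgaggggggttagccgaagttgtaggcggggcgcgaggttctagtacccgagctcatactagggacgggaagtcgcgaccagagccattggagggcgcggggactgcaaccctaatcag
CISH: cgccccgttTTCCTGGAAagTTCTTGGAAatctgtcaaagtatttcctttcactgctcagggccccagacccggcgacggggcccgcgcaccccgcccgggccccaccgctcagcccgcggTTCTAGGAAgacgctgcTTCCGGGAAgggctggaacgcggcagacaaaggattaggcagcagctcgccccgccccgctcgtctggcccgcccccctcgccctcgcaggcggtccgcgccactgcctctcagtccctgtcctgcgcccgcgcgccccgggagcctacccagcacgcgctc
The ISRE match of SOCS1 begins 113 bases before the transcription start. The GAS matches of CISH begin 241, 230, 129 and 112 bases before it.

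Between 2978982 and 4304103 reads per library fell on genes. Of the 14 interferon-induced genes used to check the IFNg label, 8 could be tested and all 8 were higher with IFNg than with DMSO. IRF1, a transcription factor induced by IFNg, lay between 10.9 and 13.6 CPM (counts scaled to the library size after TMM normalization) in DMSO and between 209 and 252 CPM in IFNg. HEXIM1, which rises when BET proteins are inhibited, lay between 50.5 and 56.7 CPM in DMSO, 137 and 152 CPM in ABBV-075, 60.2 and 67.9 CPM in ABBV-744 at 50 nM and 84.1 and 93.7 CPM at 500 nM. With IFNg and ABBV-744 at 50 nM, HEXIM1 lay between 38.6 and 55.4 CPM and overlapped IFNg alone (44.7 to 49.2 CPM), so that this gene did not mark that group. Of the 3 genes used to check the inhibitor labels, 1 was higher in that group than in IFNg alone. It was SERPINI1, at a mean of 10.3 CPM against 3.01 CPM. Its log2 fold change was 1.78, and 1.25 after the GC correction described below. All 10 hepatocyte markers were tested in every comparison. The 10 markers of blood, endothelial and stromal cells summed to between 19.7 and 48.3 CPM, and 4 or 5 of them were at 0 in every library of a group. Their sum was 36.6 to 41.4 CPM in DMSO and 46.0 to 48.3 CPM in IFNg, against 19.7 to 29.7 CPM in ABBV-075 and 21.9 to 25.9 CPM in the groups given IFNg with an inhibitor, and their part in the results was not tested. All libraries are of 1 cell line, so these sums describe RNA of the marker genes and not numbers of other cells.

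The fold changes of all genes followed the GC content of the genes in several comparisons, most of all where ABBV-744 was involved. Across genes, which are not independent replicates and share libraries, Pearson's r between log2 fold change and GC content was 0.16 for IFNg vs DMSO and 0.03 for IFNg with ABBV-075 vs ABBV-075. It was -0.28 for ABBV-075 vs DMSO, -0.32 for IFNg with ABBV-075 vs IFNg and 0.30 for ABBV-744 at 500 nM vs DMSO. It was 0.53 for ABBV-744 at 50 nM vs DMSO and -0.67 for IFNg with ABBV-744 at 50 nM vs ABBV-744 at 50 nM. The trend also differed between libraries of the same group. For a library's deviation from the DMSO mean, r with GC content ran from -0.23 to 0.24 in DMSO and from -0.43 to 0.0017 in ABBV-075. In ABBV-744 at 500 nM it ran from 0.049 to 0.51, but in IFNg with ABBV-744 at 50 nM only from -0.51 to -0.48. GC content among the members ran from 36.7% in JAK2 and 40.2% in IFNGR1 to 69.1% in SOCS1. Each value was therefore also computed after a GC correction, which subtracts from each library a curve of its deviations on GC content, and the corrected value is given for the calls between 2 groups that it ended or made.

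On build GRCh38 (GENCODE v44) the receptor genes lie at chr6:137197483-137219449 (IFNGR1, minus strand) and chr21:33403413-33479348 (IFNGR2, plus strand), and the kinase genes at chr1:64833223-65067754 (JAK1, minus strand) and chr9:4984390-5129948 (JAK2, plus strand). STAT2 lies at chr12:56341597-56360203, STAT3 at chr17:42313324-42388540, SOCS1 at chr16:11254417-11256204, SOCS3 at chr17:78356778-78360077 and CISH at chr3:50606489-50611774, all on the minus strand. Protein-coding genes on the opposite strand overlap IFNGR2 (TMEM50B), JAK1 (RAVER2), JAK2 (INSL6), SOCS1 (RMI2) and CISH (MAPKAPK3). On the same strand, non-coding genes or pseudogenes overlap JAK1, JAK2 and STAT2, and the strand does not separate these. The counts used were those on the strand of the gene, and the opposite strand held at most 16 counts of IFNGR2 in a library.

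The members spanned a wide range of levels. Per kilobase of exon, DMSO cells held 38.7 ± 2.18 CPM per kb of IFNGR2, 24.4 ± 1.39 of IFNGR1 and 16.7 ± 0.690 of STAT3 (SD, n = 3). JAK1 stood at 7.25 ± 0.371 CPM per kb, STAT2 at 5.59 ± 0.0835 and SOCS1 at 4.09 ± 0.0435. The rarest members were SOCS3 at 0.952 ± 0.452, JAK2 at 0.567 ± 0.0432 and CISH at 0.201 ± 0.0839 CPM per kb. JAK2 was thus counted far less than JAK1, its partner at the receptor. CISH had 1 to 7 counts in a library and was at the floor of 3 counts or fewer in every library of 2 groups, so that no comparison could test it. Between the highest and the lowest group mean, STAT2 differed 5.24-fold, SOCS3 4.94-fold, JAK2 4.64-fold, SOCS1 3.30-fold, CISH 3.22-fold and IFNGR2 2.05-fold, SOCS3 and CISH on few counts, whereas JAK1, IFNGR1 and STAT3 differed 1.86-fold, 1.72-fold and 1.70-fold.

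**Figure D1:**
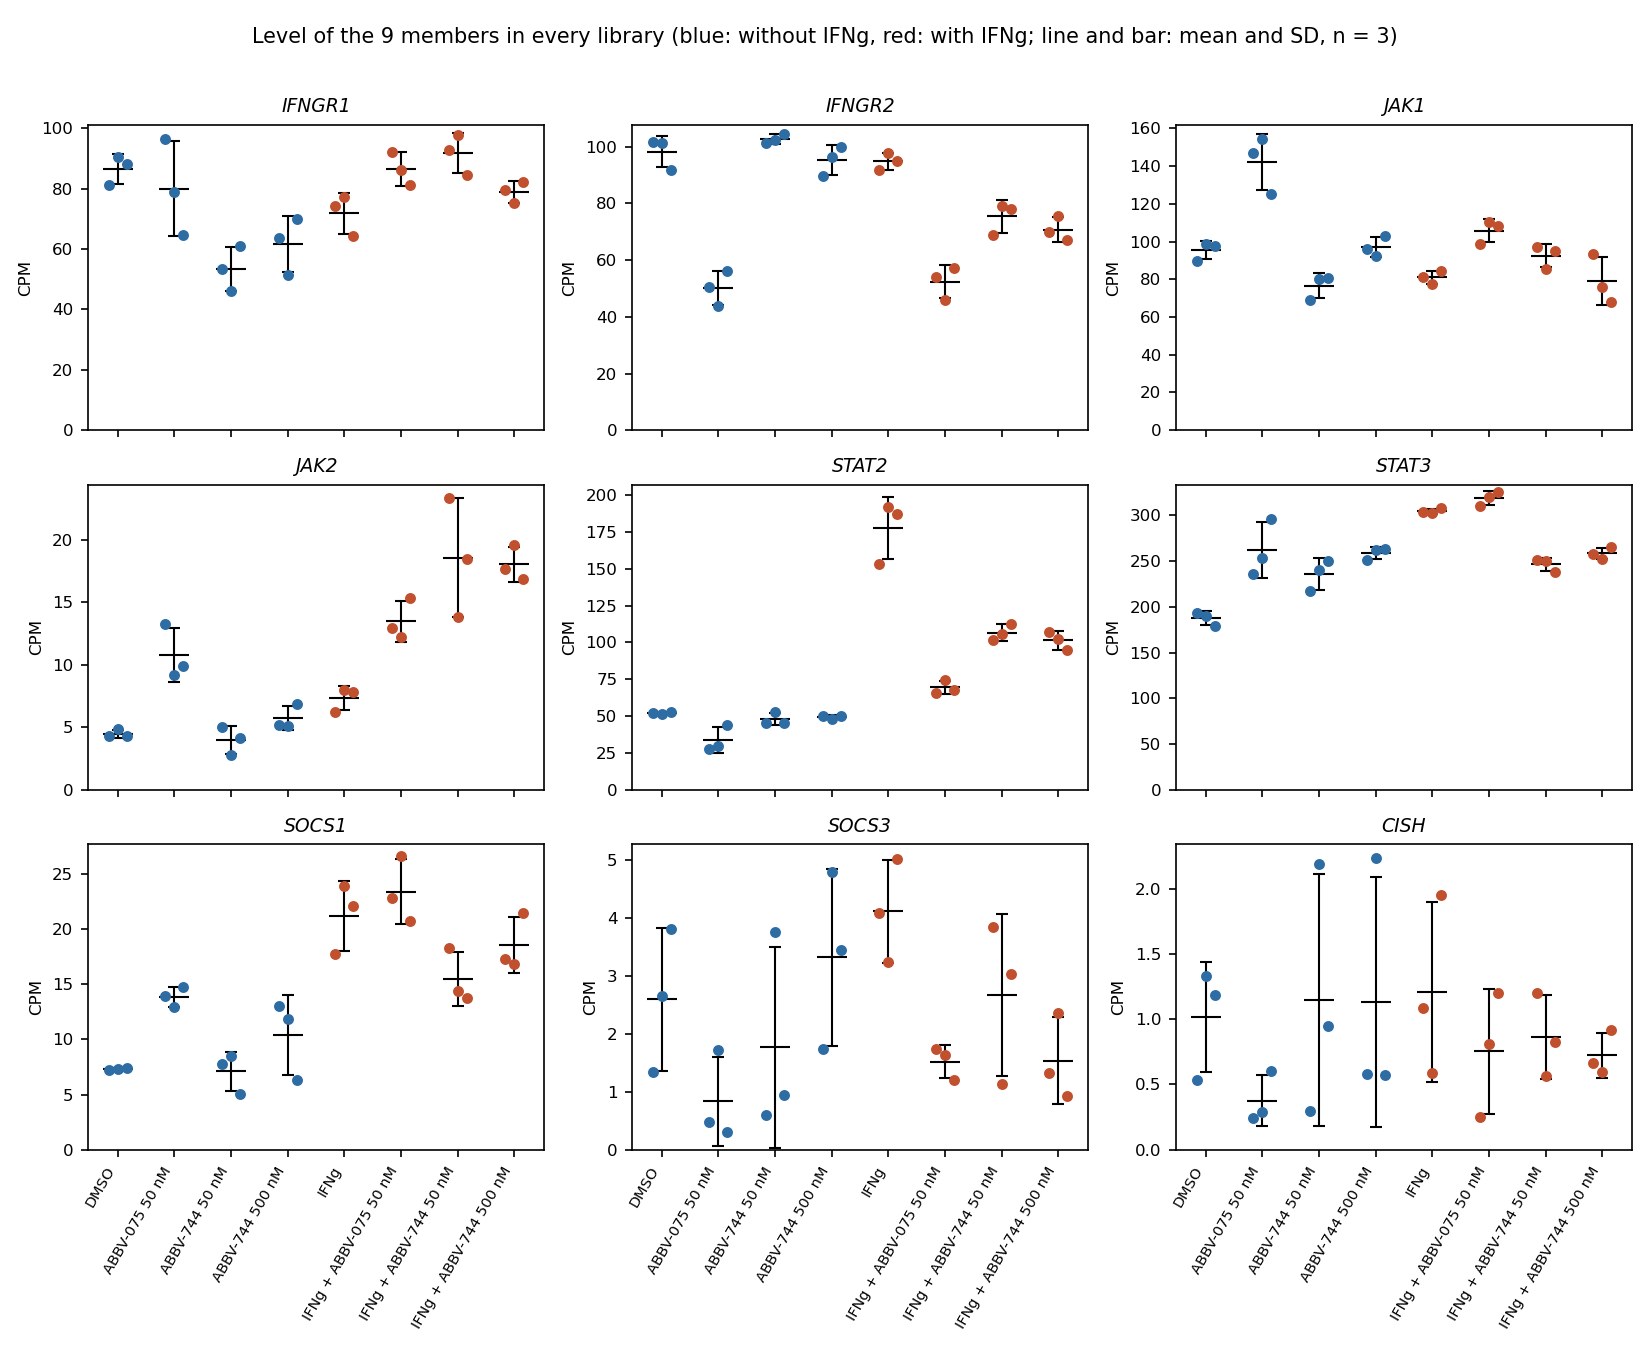
Level of each member in every library, in CPM on a linear axis that starts at 0; each point is 1 library, the line and bar are the mean and SD of 3 libraries, blue points lack IFNg and red points had it. STAT2 and SOCS1 are raised in the IFNg group, IFNGR2 is lowest in the 2 groups given ABBV-075, and SOCS3 and CISH lie between 0.241 and 5.03 CPM.

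A member was called in a comparison when its adjusted p (quasi-likelihood test of edgeR, adjusted over all genes tested by the Benjamini-Hochberg method) was at most 0.05. For IFNg vs DMSO, 3 of 8 tested members were called, all of them higher, against 3.46% of all genes tested, and 2 of them also passed the absolute log2 fold change of 1.5, against 0.847% of all genes. The median log2 fold change was 0.67 over the tested members and -0.0023 over all genes. For ABBV-075 vs DMSO, 6 of 7 were called (4 higher, 2 lower), where 39.3% of all genes were (median 0.46 over the members and 0.026 over all genes). For ABBV-744 vs DMSO, 3 of 7 were called at 50 nM (1 higher, 2 lower; 18.9% of all genes) and 2 of 8 at 500 nM (1 higher, 1 lower; 15.3%). With IFNg present, 6 of 8 members were called for ABBV-075 vs none (3 higher, 3 lower), where 56.6% of all genes were called. For ABBV-744 with IFNg vs IFNg, 6 of 8 were called at 50 nM (51.7% of all genes) and 5 of 8 at 500 nM (45.7%). After the GC correction these counts were 2 (34.4% of all genes) and 4 (36.8%). Before the correction, the share of members called lay above that of all genes in each of these comparisons, on 7 or 8 tested members. After it, the share for IFNg with ABBV-744 at 50 nM vs IFNg lay below that of all genes. The members were chosen with earlier results of these data known, so these shares are a description. For ABBV-744 at 50 nM vs DMSO, 1 member was called without DMSO replicate 2 or 3 or ABBV-744 replicate 3. The comparisons share their control libraries.

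**Figure D2:**
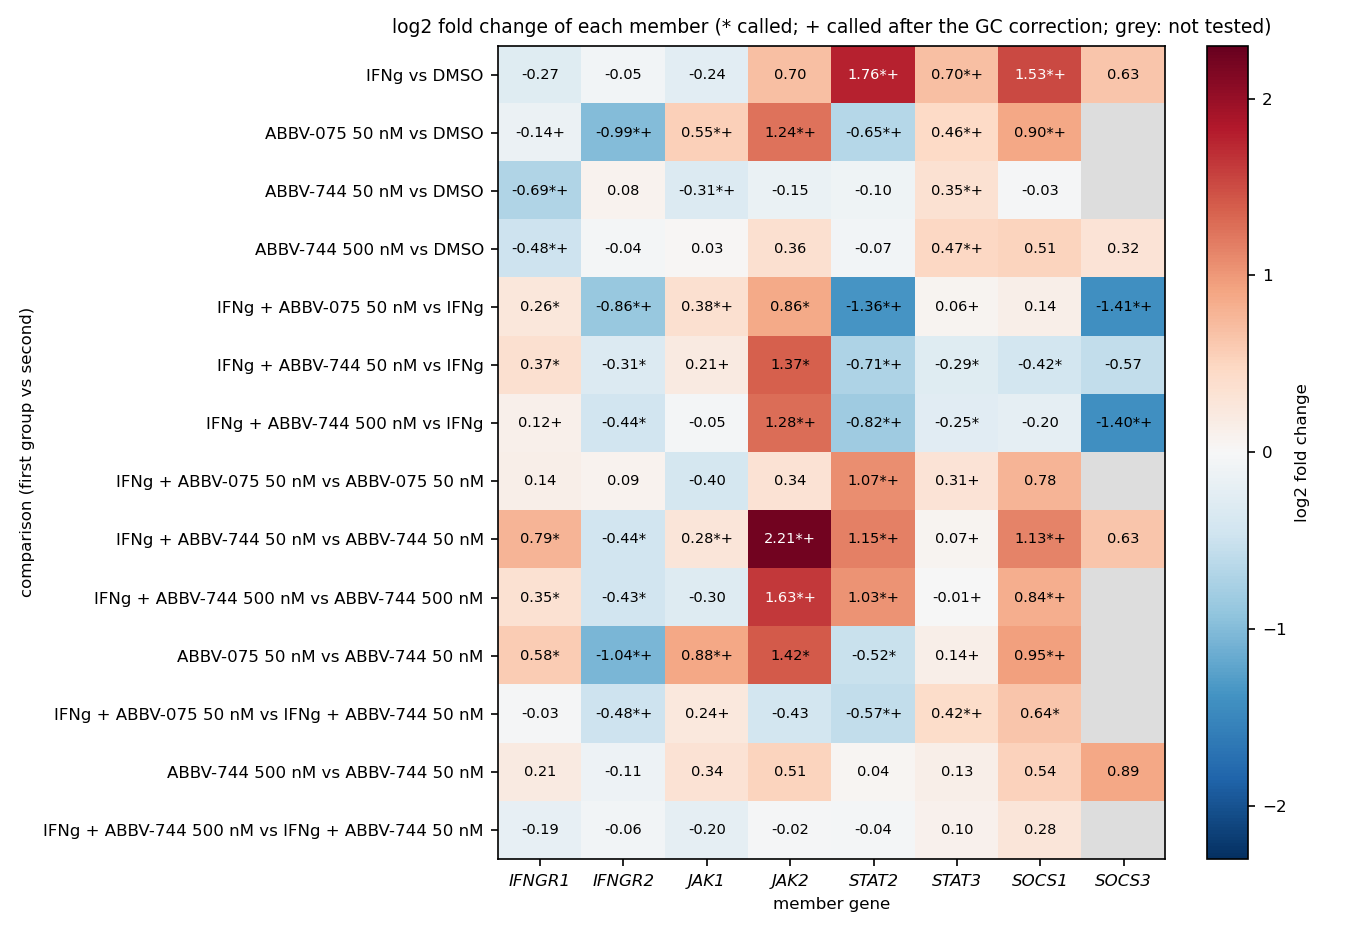
Log2 fold change of the 8 tested members (columns) in the 14 comparisons between 2 groups (rows), written in each cell and coloured from blue (lower in the first group) to red (higher); a star marks a call, a plus a call after the GC correction, and grey a member that was not tested. STAT2 is called in 10 of the 14 comparisons and IFNGR2 in 8, always lower; CISH was never tested.

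Of the receptor genes, IFNGR2 fell with ABBV-075. Without IFNg, IFNGR1 fell with ABBV-744, and after the GC correction it was lower with ABBV-075 as well. IFNGR2 stood at 102, 101 and 91.9 CPM in DMSO and at 50.6, 43.8 and 56.1 CPM in ABBV-075, a 1.99-fold lower level (log2 fold change -0.99 ± 0.14 SE, adjusted p = 0.000203). With IFNg it stood at 91.8, 97.8 and 94.9 CPM alone and at 54.1, 45.9 and 57.1 CPM with ABBV-075 (log2 fold change -0.86 ± 0.12 SE, adjusted p = 5.22e-08). No ABBV-075 library reached the level of any DMSO or IFNg library, and both calls were kept after the GC correction (log2 fold change -0.86 and -0.61). IFNGR2 lay at 101, 102 and 105 CPM in ABBV-744 at 50 nM and at 89.7, 96.3 and 99.9 CPM at 500 nM, overlapping DMSO at both doses. The differences from DMSO were 0.08 (95% interval -0.13 to 0.29) and -0.04 (-0.25 to 0.17) on the log2 scale, which excludes a decrease of the size seen with ABBV-075. With IFNg, IFNGR2 was lower at 68.9, 79.2 and 78.0 CPM with ABBV-744 at 50 nM (log2 fold change -0.31, adjusted p = 0.00861) and at 69.8, 75.5 and 66.9 CPM with 500 nM (-0.44, adjusted p = 0.00112). Neither call was kept after the GC correction (-0.11, adjusted p = 0.332, and -0.20, adjusted p = 0.0776), and the first was lost without replicate 1 of IFNg with ABBV-744 at 50 nM (-0.27, adjusted p = 0.0524).

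IFNGR1 held 81.1, 90.6 and 88.1 CPM in DMSO and 53.3, 46.1 and 60.9 CPM in ABBV-744 at 50 nM, a 1.61-fold lower level (log2 fold change -0.69 ± 0.12 SE, adjusted p = 0.000322, GC-corrected -0.43, adjusted p = 0.00337). At 500 nM it held 63.6, 51.5 and 70.0 CPM (log2 fold change -0.48, adjusted p = 0.00454, GC-corrected -0.34, adjusted p = 0.00779). Every ABBV-744 library without IFNg lay below every DMSO library. ABBV-075 libraries held 96.3, 78.8 and 64.8 CPM of IFNGR1, which overlapped DMSO (log2 fold change -0.14, adjusted p = 0.489), though the GC-corrected difference was called (-0.42, adjusted p = 0.00158). Under IFNg the direction for IFNGR1 depended on the correction. The gene held 74.3, 77.2 and 64.2 CPM in IFNg and 92.9, 97.9 and 84.7 CPM with ABBV-744 at 50 nM (log2 fold change 0.37, adjusted p = 0.00326), but the corrected value was -0.18 (adjusted p = 0.126). With ABBV-744 at 500 nM it was 0.12 (adjusted p = 0.405) before and -0.29 (adjusted p = 0.0142) after the correction. With ABBV-075 the call (0.26, adjusted p = 0.044) was lost without any of the IFNg libraries or without replicate 1 or 2 of IFNg with ABBV-075 (0.17 to 0.31, adjusted p from 0.0523 to 0.25), and the value turned to -0.12 (adjusted p = 0.261) with the correction.

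Both kinase genes rose with ABBV-075, though with IFNg present the rise of JAK2 was not called after the GC correction. JAK1 held 89.9, 98.8 and 97.8 CPM in DMSO and 147, 154 and 125 CPM in ABBV-075 (log2 fold change 0.55 ± 0.12 SE, adjusted p = 0.00338), with no overlap. With IFNg, JAK1 held 81.2, 77.5 and 84.6 CPM alone and 98.8, 110.5 and 108 CPM with ABBV-075 (0.38 ± 0.11 SE, adjusted p = 0.00276). Both calls for JAK1 were kept after the GC correction (0.62 and 0.53). With ABBV-744 at 50 nM JAK1 held 69.0, 80.3 and 80.5 CPM (-0.31, adjusted p = 0.0492), with no overlap. Leaving out any DMSO library, or ABBV-744 replicate 1 or 3, ended this call (log2 fold change -0.35 to -0.23, adjusted p from 0.0557 to 0.191). With IFNg and ABBV-744 at 50 nM, JAK1 held 97.3, 85.5 and 95.1 CPM, above every IFNg library. The difference was not called (0.21, adjusted p = 0.0654), but was after the correction (0.26, adjusted p = 0.0192) and without replicate 2 of the combined group (0.25, adjusted p = 0.0494). ABBV-744 alone at 500 nM left JAK1 at 96.1, 92.4 and 103 CPM, which overlapped DMSO (0.03, 95% interval -0.18 to 0.23).

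JAK2 was counted between 9 and 97 times in a library. It held 4.28, 4.87 and 4.28 CPM in DMSO and 13.2, 9.17 and 9.90 CPM in ABBV-075, a 2.37-fold higher level (log2 fold change 1.24 ± 0.25 SE, adjusted p = 0.00216, GC-corrected 0.80, adjusted p = 0.0142). Every ABBV-075 library lay above every DMSO library. ABBV-744 left JAK2 at 5.06, 2.82 and 4.12 CPM at 50 nM and at 5.22, 5.12 and 6.89 CPM at 500 nM, with differences from DMSO of -0.15 (95% interval -0.82 to 0.52) and 0.36 (-0.25 to 0.97). The libraries at 50 nM overlapped DMSO and those at 500 nM lay above it, and neither difference was called. IFNg alone gave 6.26, 7.95 and 7.82 CPM, above every DMSO library, but the test did not pass (0.70, adjusted p = 0.209). The highest levels of JAK2 were those of the groups given IFNg and an inhibitor. They were 12.9, 12.2 and 15.3 CPM with ABBV-075, 23.4, 13.8 and 18.5 CPM with ABBV-744 at 50 nM and 17.6, 19.5 and 16.9 CPM with 500 nM, and no library of these groups overlapped IFNg alone. Against IFNg alone the log2 fold changes were 0.86 (adjusted p = 0.00164), 1.37 (adjusted p = 3.53e-06) and 1.28 (adjusted p = 1.32e-05). JAK2 has the lowest GC content of the members, and the corrected values were 0.21 (adjusted p = 0.442), 0.50 (adjusted p = 0.0762) and 0.58 (adjusted p = 0.033), so that 1 of the 3 calls was kept.

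STAT2 was called in 10 of the 14 comparisons between groups, 9 of them also after the GC correction. It held 52.4, 51.2 and 52.6 CPM in DMSO and 153, 192 and 187 CPM in IFNg, a 3.40-fold increase (log2 fold change 1.76 ± 0.10 SE, adjusted p = 2.61e-17, GC-corrected 1.72). ABBV-075 alone lowered STAT2 to 27.7, 30.1 and 43.8 CPM (-0.65 ± 0.18 SE, adjusted p = 0.0119, GC-corrected -0.52, adjusted p = 0.00403), a call lost without ABBV-075 replicate 2 (-0.57, adjusted p = 0.0711). ABBV-744 alone left it at 45.5, 53.0 and 45.6 CPM at 50 nM and at 49.9, 48.3 and 50.2 CPM at 500 nM. These differed from DMSO by -0.10 (95% interval -0.35 to 0.15) and -0.07 (-0.31 to 0.17), and neither was called. With IFNg, all 3 inhibitor treatments lowered STAT2. ABBV-075 brought it to 66.0, 74.4 and 68.0 CPM, 2.56-fold below IFNg alone (-1.36 ± 0.11 SE, adjusted p = 2.21e-13, GC-corrected -1.09). ABBV-744 brought it to 101, 105 and 113 CPM at 50 nM (1.64-fold lower, log2 fold change -0.71, adjusted p = 9.83e-08, GC-corrected -0.48, adjusted p = 2.05e-05) and to 107, 102 and 94.5 CPM at 500 nM (1.77-fold lower, -0.82, adjusted p = 7.74e-08, GC-corrected -0.56, adjusted p = 2.89e-06). Ordered by level, IFNg alone, IFNg with ABBV-744 at either dose, IFNg with ABBV-075 and the groups without IFNg did not overlap, whereas the 2 doses of ABBV-744 overlapped each other.

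STAT3 was the member with the most counts, 723 to 1251 in a library, and the one with the smallest range. It rose from 193, 190.3 and 179 CPM in DMSO to 304, 302 and 308 CPM in IFNg (log2 fold change 0.70 ± 0.07 SE, adjusted p = 3.43e-09). Each inhibitor alone also raised it. STAT3 held 236, 253 and 296 CPM in ABBV-075 (0.46, adjusted p = 0.00879), 217, 241 and 250.1 CPM in ABBV-744 at 50 nM (0.35, adjusted p = 0.0127) and 252, 262 and 263 CPM at 500 nM (0.47, adjusted p = 0.000339). All DMSO libraries lay below all of these, and the 3 calls were kept after the GC correction (0.59, 0.24 and 0.40). The call for ABBV-075 was lost without DMSO replicate 3 (0.43, adjusted p = 0.0564), and the call at 50 nM of ABBV-744 was lost without DMSO replicate 2 or 3 or ABBV-744 replicate 3 (0.36, 0.31 and 0.30, adjusted p = 0.0622, 0.0908 and 0.0698). With IFNg, STAT3 held 310.4, 319.7 and 325 CPM with ABBV-075, 252, 249.9 and 238 CPM with ABBV-744 at 50 nM and 258, 252 and 265 CPM at 500 nM. The ABBV-744 groups lay below IFNg alone (-0.29, adjusted p = 0.00201, and -0.25, adjusted p = 0.0155), but these calls were lost with the correction (-0.06, adjusted p = 0.488, and 0.00097, adjusted p = 0.993). The call at 500 nM was also lost without IFNg replicate 2 (-0.25, adjusted p = 0.0576) or without replicate 2 of IFNg with ABBV-744 at 500 nM (-0.23, adjusted p = 0.0942). ABBV-075 with IFNg was not called against IFNg (0.06, adjusted p = 0.581) and was called after the correction (0.32, adjusted p = 3.3e-05).

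Of the feedback inhibitors, SOCS1 rose with IFNg and with ABBV-075. It held 7.22, 7.31 and 7.38 CPM in DMSO and 17.7, 23.9 and 22.1 CPM in IFNg, a 2.88-fold increase (log2 fold change 1.53 ± 0.20 SE, adjusted p = 3.47e-07, GC-corrected 1.46). ABBV-075 alone gave 13.97, 12.9 and 14.7 CPM (0.90 ± 0.20 SE, adjusted p = 0.00417, GC-corrected 1.00). Neither group overlapped DMSO. ABBV-744 gave 7.74, 8.47 and 5.07 CPM at 50 nM and 13.1, 11.8 and 6.31 CPM at 500 nM, both overlapping DMSO, with differences of -0.03 (95% interval -0.57 to 0.51) and 0.51 (-0.02 to 1.03). On top of IFNg, SOCS1 held 22.8, 26.6 and 20.8 CPM with ABBV-075 and 17.3, 16.9 and 21.5 CPM with ABBV-744 at 500 nM, both overlapping IFNg alone (0.14, 95% interval -0.21 to 0.49, and -0.20, -0.57 to 0.16). At 50 nM of ABBV-744 the values of 18.3, 14.4 and 13.8 CPM also overlapped IFNg alone. The call (-0.42, adjusted p = 0.0438) was lost without IFNg replicate 2 or 3 or without replicate 2 or 3 of the combined group (-0.40 to -0.32, adjusted p from 0.0891 to 0.185), and with the GC correction (-0.14, adjusted p = 0.545). SOCS1 is the member whose promoter window holds the ISRE letters shown above.

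SOCS3 was counted 1 to 18 times in a library. It held 5, 12 and 16 counts in DMSO and 15, 11 and 18 counts in IFNg, which overlapped (log2 fold change 0.63, 95% interval -0.13 to 1.40). With IFNg and ABBV-075 there were 7, 6 and 4 counts, 2.66-fold below IFNg alone after scaling (-1.41 ± 0.41 SE, adjusted p = 0.00338, GC-corrected -1.23, adjusted p = 0.00855). With IFNg and ABBV-744 at 500 nM there were 4, 8 and 3 counts (-1.40 ± 0.43 SE, adjusted p = 0.0077, GC-corrected -1.17, adjusted p = 0.0304), a call lost without replicate 3 of that group (-1.12, adjusted p = 0.0617). At 50 nM the counts of 16, 4 and 11 overlapped IFNg alone (-0.57, 95% interval -1.35 to 0.20). ABBV-075 alone left 2, 6 and 1 counts of SOCS3, and the filter on low counts took it out of that comparison. CISH, with 2, 6 and 5 counts in DMSO and 4, 2 and 7 in IFNg, overlapped between all neighbouring groups, and no change of it was detectable at this depth.

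The response to IFNg was next compared between DMSO and each inhibitor background. With ABBV-075 vs ABBV-075 alone, 1 of 7 tested members was called for IFNg (1.05% of all genes): STAT2 (log2 fold change 1.07 ± 0.18 SE, adjusted p = 0.00865). That call was lost without ABBV-075 replicate 2 (0.99, adjusted p = 0.106) or without replicate 2 of IFNg with ABBV-075 (1.03, adjusted p = 0.068). SOCS1 did not overlap between these groups but missed the threshold (0.78, adjusted p = 0.0818), and it was called without ABBV-075 replicate 3 (0.84, adjusted p = 0.0215). Without that library JAK1 (-0.47, adjusted p = 0.0313) and STAT3 (0.42, adjusted p = 0.0353) were called as well. With all libraries STAT3 was not called (0.31, adjusted p = 0.556) but was after the GC correction (0.39, adjusted p = 0.0129). With ABBV-744 at 50 nM, 6 of 8 members were called for IFNg (5 higher, 1 lower; 60.2% of all genes), 5 after the GC correction (32.6%), and 1 was past 1.5 (5.33%). That one was JAK2 at 2.21 ± 0.27 SE (adjusted p = 1.58e-06), and its corrected value was 1.11 (adjusted p = 0.00184). With ABBV-744 at 500 nM, 5 of 7 were called (4 higher, 1 lower; 40.9%), 4 after the correction (28.1%), and 1 was past 1.5 (2.09%), again JAK2 (1.63 ± 0.23 SE, adjusted p = 7.93e-06, corrected 0.84, adjusted p = 0.00567). STAT2 rose with IFNg at both doses (1.15, adjusted p = 1.43e-07, and 1.03, adjusted p = 5.87e-07, corrected 1.45 and 1.30). SOCS1 rose as well (1.13, adjusted p = 0.00035, and 0.84, adjusted p = 0.00749, corrected 1.60 and 0.95), and its call at 500 nM was lost without ABBV-744 replicate 3 (0.57, adjusted p = 0.0626). The member that was lower at both doses was IFNGR2 (-0.44, adjusted p = 0.00144, and -0.43, adjusted p = 0.00433), and neither call was kept after the correction (-0.19, adjusted p = 0.113, and -0.19, adjusted p = 0.123). IFNGR1 was higher with IFNg at both doses (0.79, adjusted p = 2.39e-05, and 0.35, adjusted p = 0.0384), but not after the correction (0.06, adjusted p = 0.688, and -0.14, adjusted p = 0.327). Its call at 500 nM was also lost without ABBV-744 replicate 2 or without any library of the combined group (0.22 to 0.38, adjusted p from 0.0724 to 0.162). JAK1 was called at 50 nM (0.28, adjusted p = 0.037), except without replicate 1 or 3 of either group (0.24 to 0.32, adjusted p from 0.051 to 0.135). At 500 nM JAK1 was not called (-0.30, adjusted p = 0.0517), but was without ABBV-744 replicate 2 (-0.35, adjusted p = 0.0161) or without replicate 1 of the combined group (-0.42, adjusted p = 0.0188). SOCS3 was called at 50 nM without ABBV-744 replicate 2 (1.81, adjusted p = 0.0232). STAT3, which rose with IFNg beside DMSO, differed by 0.07 (95% interval -0.13 to 0.26) and -0.01 (-0.20 to 0.19) beside ABBV-744, though after the correction both differences were called (0.35, adjusted p = 0.000947, and 0.26, adjusted p = 0.00462).

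**Figure D3:**
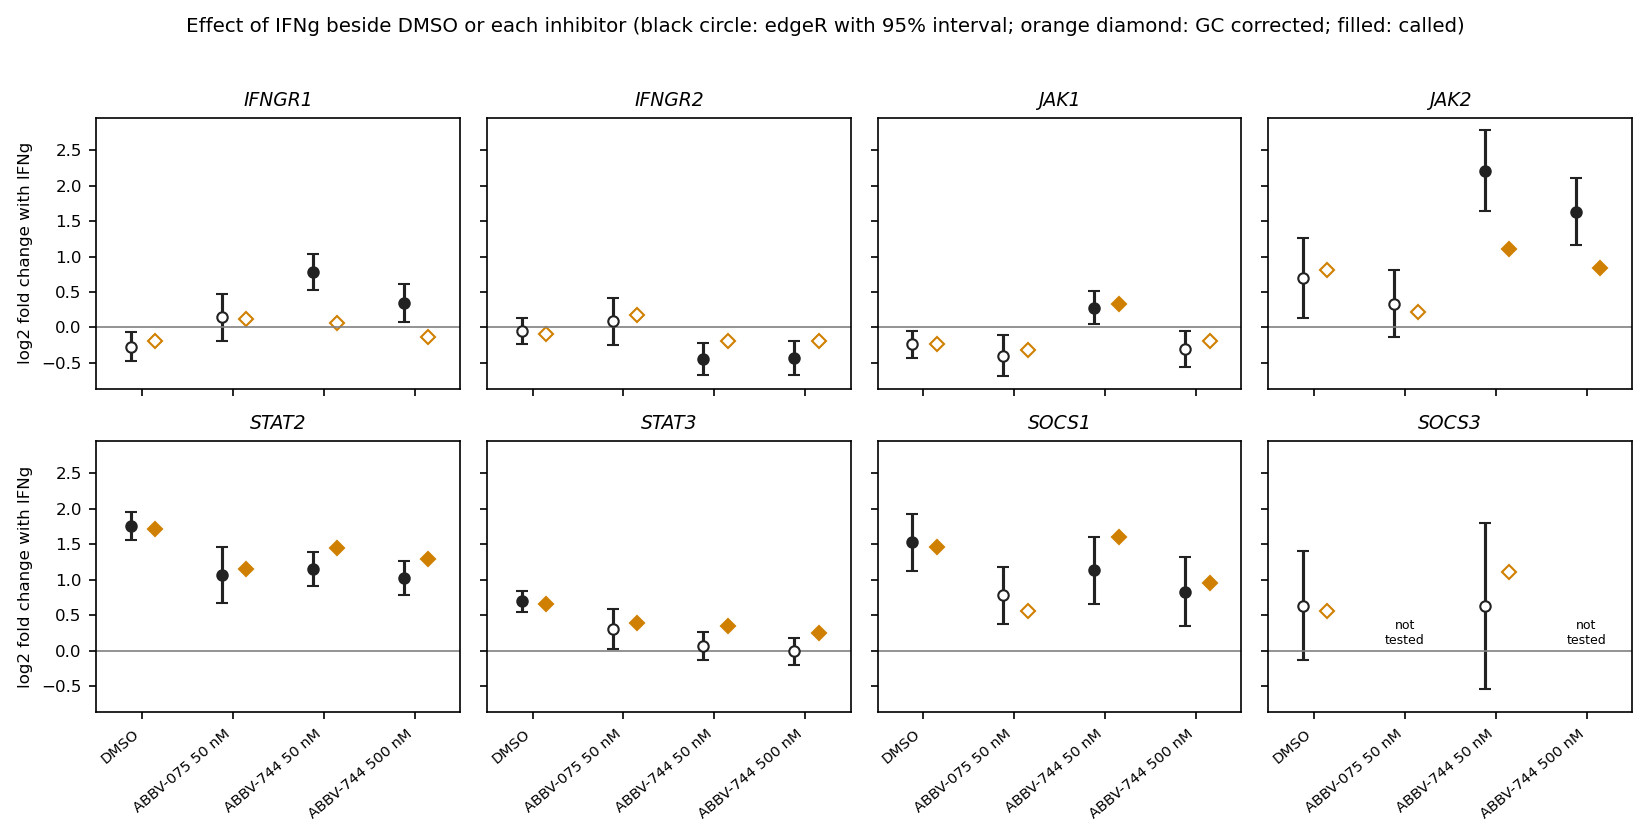
Log2 fold change with IFNg for the 8 tested members, beside DMSO or each inhibitor (x axis); black circles are edgeR's values with 95% intervals, orange diamonds the GC-corrected values, and filled symbols were called. STAT2 is called in all 4 backgrounds, from 1.76 in DMSO to 1.03 with ABBV-744 at 500 nM, and JAK2 shows the widest gap between the 2 values, 2.21 against 1.11 with ABBV-744 at 50 nM.

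The interaction term of a fit to 4 groups tested whether an inhibitor changed the response. For ABBV-075, edgeR called 0 of 8 members (0.0347% of all genes), and DESeq2 called 0. The estimate for STAT2 was -0.73 (95% interval -1.16 to -0.30, adjusted p = 0.5), and it was called without ABBV-075 replicate 1 (-0.86, adjusted p = 0.0214). That for SOCS1 was -0.78 (-1.31 to -0.24, adjusted p = 0.6). For STAT3 the estimate was -0.42 (-0.70 to -0.13, adjusted p = 0.573), of the same sign as beside ABBV-744 below. For ABBV-744 at 50 nM 6 of 8 members were called (51.6% of all genes), and 2 after the GC correction (20.4%): JAK1 (0.57, adjusted p = 0.00079) and STAT3 (-0.31, adjusted p = 0.0179). At 500 nM 6 of 8 were called (33.5%), 1 of them past 1.5 (3.07%), and 2 after the correction (16.7%): STAT2 (-0.43, adjusted p = 0.0169) and STAT3 (-0.40, adjusted p = 0.000804). Before the correction the interaction of STAT3 was -0.66 (adjusted p = 2.09e-05) at 50 nM and -0.70 (adjusted p = 1.26e-05) at 500 nM, so that its response to IFNg was smaller beside ABBV-744 than beside DMSO at both doses and with either fit. SOCS1 was not called at 500 nM (-0.69, adjusted p = 0.0875) but was without ABBV-744 replicate 3 (-0.96, adjusted p = 0.0152).

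**Figure D4:**
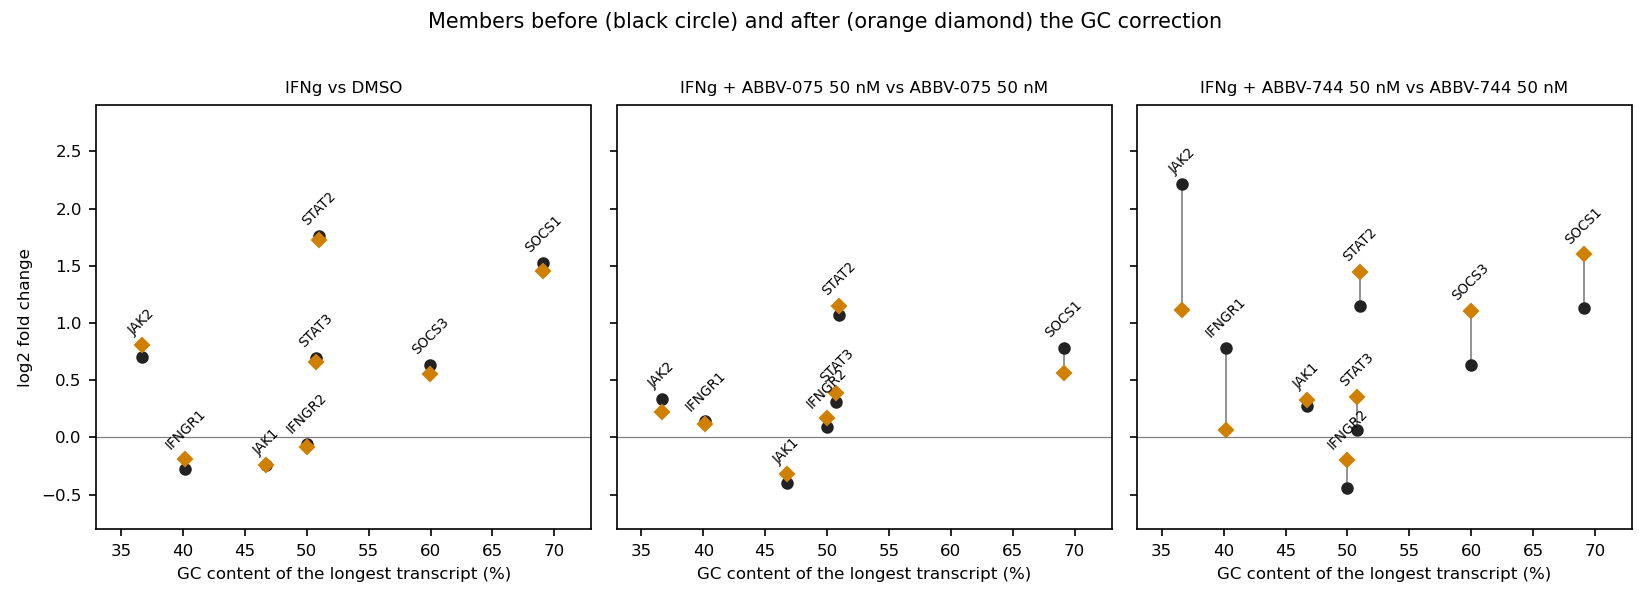
Log2 fold change of the members with IFNg against the GC content of their longest transcript (%), in 3 backgrounds; black circles are edgeR's values, orange diamonds the GC-corrected ones, joined by a grey line. The 2 values lie close together beside DMSO and ABBV-075, and part most beside ABBV-744 at 50 nM, where JAK2 at 36.7% GC moves from 2.21 to 1.11 and SOCS1 at 69.1% from 1.13 to 1.60.

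ABBV-075 and ABBV-744 can be compared at the dose they share, 50 nM, although the time of the ABBV-744 treatment is not given. Without IFNg, 6 of 7 members were called between the 2 compounds (4 higher with ABBV-075, 2 lower), where 40.8% of all genes were. After the GC correction 4 were called, where 34.4% of all genes were. IFNGR2 was 2.06-fold lower with ABBV-075 (log2 fold change -1.04 ± 0.14 SE, adjusted p = 0.000754, corrected -0.85). JAK1 was 1.84-fold higher (0.88 ± 0.13 SE, adjusted p = 0.00145, corrected 0.93), and SOCS1 was 1.93-fold higher (0.95 ± 0.24 SE, adjusted p = 0.0104, corrected 1.29). JAK2 was 2.67-fold higher (1.42 ± 0.29 SE, adjusted p = 0.00444), but not after the correction (0.62, adjusted p = 0.0898). The calls for IFNGR1 (0.58, adjusted p = 0.0246, corrected 0.03, adjusted p = 0.86) and STAT2 (-0.52, adjusted p = 0.0475, corrected -0.30, adjusted p = 0.109) were lost with the correction and in most fits that left out 1 library. IFNGR1 was not called without ABBV-075 replicate 1 or 2 or ABBV-744 replicate 1 or 2 (0.43 to 0.61, adjusted p from 0.0657 to 0.0974), nor STAT2 without ABBV-075 replicate 1 or 2 or any ABBV-744 library (-0.56 to -0.38, adjusted p from 0.0787 to 0.177). STAT3 did not differ beyond the spread (0.14, 95% interval -0.13 to 0.41, adjusted p = 0.389), and was called after the correction (0.35, adjusted p = 0.00717). With IFNg, 4 of 7 members were called (2 higher, 2 lower; 33.7% of all genes). STAT2 (-0.57 ± 0.10 SE, adjusted p = 1.83e-05), IFNGR2 (-0.48 ± 0.11 SE, adjusted p = 0.000785) and STAT3 (0.42 ± 0.08 SE, adjusted p = 6.67e-05) kept their calls after the correction. SOCS1 (0.64 ± 0.17 SE, adjusted p = 0.00354) did not (0.25, adjusted p = 0.254). JAK2 was not called (-0.43, 95% interval -0.82 to -0.04, adjusted p = 0.0808) but was without replicate 2 of IFNg with ABBV-744 (-0.59, adjusted p = 0.0235). JAK1 was not called (0.24, adjusted p = 0.054) but was without replicate 1 of IFNg with ABBV-075 (0.31, adjusted p = 0.00678) and after the correction (0.28, adjusted p = 0.00621). IFNGR2 was therefore lower with ABBV-075 than with ABBV-744 at 50 nM both with and without IFNg, in each case with no overlap between the libraries.

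Between the 2 doses of ABBV-744, edgeR called 0 of 8 members without IFNg (0.0274% of all genes) and 0 of 7 with it (1.7%). DESeq2 also called 0 in both. Without IFNg, JAK1 was the only tested member whose interval left out 0 (0.34, 95% interval 0.08 to 0.59, adjusted p = 0.769). It held 69.0, 80.3 and 80.5 CPM with 50 nM and 96.1, 92.4 and 103 CPM with 500 nM, which did not overlap. The intervals still allow differences of moderate size. For SOCS1 the difference of 500 nM from 50 nM was 0.54 (95% interval -0.08 to 1.16) without IFNg and 0.28 (-0.09 to 0.65) with it, for STAT2 it was 0.04 (-0.25 to 0.32) and -0.04 (-0.23 to 0.14), and for IFNGR2 it was -0.11 (-0.35 to 0.12) and -0.06 (-0.27 to 0.15).

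Other genes of the pathway were taken as lists. Of 7 other JAK and STAT pathway genes, 5 were tested (median log2 fold change with IFNg 0.07). Of these, 2 rose with IFNg, where 2.76% of all genes were called higher. The largest was IRF9, the partner of STAT2, which rose by 3.25 ± 0.11 SE on the log2 scale (adjusted p = 5.51e-24) and by 2.38 beside ABBV-075. STAT6, which carries signals of the receptor gene IL4R, fell by 1.39 with ABBV-075 (adjusted p = 2.34e-05) and by 1.53 with ABBV-075 and IFNg. Among 5 other SOCS genes, 4 were tested, and 3 were higher with IFNg and ABBV-075 than with IFNg, where 28.2% of all genes were called higher, and 1 was higher after the GC correction. SOCS4 was among the 3 (1.10, adjusted p = 3.41e-05) but not called after the correction (0.37, adjusted p = 0.0966). Beside IFNg and ABBV-744 at 50 nM, 3 of the 4 were also higher than with IFNg (median 0.83, with 27.4% of all genes called higher), and 1 after the correction (median 0.15): SOCS4, at 1.496 (adjusted p = 9.03e-09) before and 0.54 (adjusted p = 0.0136) after it. All 8 phosphatase and PIAS genes, other brakes on the pathway, were tested. Of these, 2 rose with ABBV-075 and 3 with ABBV-075 and IFNg, in both cases with the same number after the correction. These shares lay near the background, as 19.8% and 28.2% of all genes were called higher. PIAS1, an inhibitor of STAT binding to DNA, rose by 1.08 (adjusted p = 0.000823) and by 1.44 (adjusted p = 2.13e-13).

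Among 14 other cytokine receptor genes, 13 were tested for ABBV-075 vs DMSO, and 2 rose while 4 fell, where 19.8% of all genes were called higher and 19.6% lower (2 and 6 after the correction). The 6 calls among 13 genes lay near the background of 39.3%, and after the correction 45.1% of all genes were called. IL6R, the ligand-binding receptor for IL6, fell by 1.33 (adjusted p = 7.04e-05), IL4R by 1.35 (adjusted p = 0.000108) and IFNLR1, a subunit of the interferon lambda receptor, by 1.10 (adjusted p = 0.00474). LEPR, the leptin receptor, was higher by 1.88 (adjusted p = 0.00795), on low means of 1.49 CPM in DMSO and 5.68 CPM in ABBV-075. Of 11 ligand genes, 3 were tested and all 3 fell with ABBV-075, also after the correction. They were LIF (-3.20, adjusted p = 1.2e-06), CLCF1 (-2.64, adjusted p = 0.00396) and IL11 (-1.15, adjusted p = 0.0212), all of them cytokines of the IL6 family that signal through STAT3. Of 12 acute-phase genes, 8 were tested. With ABBV-075, 5 were lower (6 after the correction), where 19.6% of all genes were called lower, and none was higher. ORM1, orosomucoid, fell by 1.00 (adjusted p = 0.000209). With IFNg, 5 acute-phase genes were lower and 1 was higher, where 0.695% of all genes were called lower and 2.76% higher. The list median was -0.33, against -0.0023 over all genes. STAT3 itself was higher in both of these comparisons.

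With IFNg present, ABBV-075 moved the same lists as follows, against 56.6% of all genes called (55.9% after the GC correction). Of 13 receptor genes tested, 4 were higher and 5 lower than with IFNg alone (3 and 7 after the correction). IL6R was lower (log2 fold change -1.36, adjusted p = 1.54e-08), as were IL4R (-1.34, adjusted p = 4.55e-09) and IFNLR1 (-1.04, adjusted p = 9.76e-05), whereas IL6ST, the signalling chain shared by the IL6 family, was higher by 1.12 (adjusted p = 7.9e-12, corrected 0.46). LEPR rose from a mean of 0.277 to 4.25 CPM. The lower mean lies under the lowest group mean of CISH (0.376 CPM), so that the size of this rise is uncertain. Of 3 ligand genes tested, LIF (-2.94, adjusted p = 9.13e-17) and CLCF1 (-2.13, adjusted p = 0.000289) were lower. Of 7 acute-phase genes tested, 2 were higher and 5 lower (0 and 5 after the correction), among them FGA, a fibrinogen chain (-1.19, adjusted p = 2.49e-13), ORM1 (-1.16, adjusted p = 5.26e-13) and A2M, alpha-2-macroglobulin (-1.08, adjusted p = 2.56e-15). The median of the acute-phase list was -0.77, and that of all genes -0.0030.

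The genes whose group means were most like those of a member over the 8 groups were found by Pearson's r of log2 CPM over 11582 genes. The points share libraries, depth and the GC trend, and r is given as a description. For STAT2 they were ABHD16A (r = 0.982), IFITM3 (0.981), an interferon-induced membrane protein, and DENND5A (0.980). For IFNGR2 they were TXNRD2, mitochondrial thioredoxin reductase (0.999), KCNAB2 (0.995) and CYP4F11 (0.994). For JAK2 they were FBXL5 (0.991), RSF1 (0.991) and CUL2 (0.989), for SOCS1 HIP1R (0.978), RALGPS1 (0.958) and ACOT7 (0.948), and for SOCS3 UAP1L1 (0.948), PLEKHF1 (0.934) and TNFRSF11A (0.931). No such genes are given for IFNGR1, JAK1, STAT3 and CISH, which did not meet the rule.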

How the data were processed

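RNA of 24 HepG2 libraries (8 groups of 3, grouped by their labels) was sequenced after ribosomal RNA removal, in directional libraries. The authors trimmed the reads (Trimmomatic 0.33), aligned them to hg38 (STAR 2.7.1) and deposited whole-number counts per gene and library, in the column layout of STAR's gene counts. The gene annotation used for counting is not given in the sources used here. Multi-mapping reads, 56.0% to 69.4% of the reads in a file, are not in these counts, and 12.0% to 16.8% of the reads fell on genes. The groups held 2978982 to 4304103 counts on genes per library, and intervals reflect the spread between 3 libraries.

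Gene-strand counts were filtered (filterByExpr), TMM normalized and tested by edgeR 4.0.16 in R 4.3.3 (glmQLFit, glmQLFTest) on the libraries of the compared groups, without covariates, with Benjamini-Hochberg adjustment over all genes. There were 14 comparisons between 2 groups and 3 interactions. A call needs an adjusted p of at most 0.05, and a stricter call also an absolute log2 fold change of 1.5. CPM were computed after TMM over all libraries, per kb of merged GENCODE v44 exons where levels of genes are compared. The GC correction was a lowess curve (span 0.3) of each library's deviations on gene GC content, used as an offset, for the 92.9% of genes with a value. The alternatives were this correction, DESeq2 1.42.0, RLE or library size scaling, other filters on low counts, all 24 libraries in 1 fit, unstranded counts, the replicate number as a block, and leaving out each library. The fits for IFNg vs DMSO and for the ABBV-075 interaction were tested on simulated data. The simulated counts held no GC trend, so that this test does not cover its effect.

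Same-numbered libraries did not deviate together: over 42 pairs the correlation of deviations from group means ran from -0.179 to 0.345 (median 0.0075), and in 0 comparisons was every pair over 0.1. The numbers were not taken as pairs.

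The members and lists were chosen with earlier results of these data known. All 9 members are named. List genes are named where they were called and moved by 1 or more on the log2 scale in the comparison described. The 3 most similar genes by Pearson's r (prior count 2) are named for members whose group means differ by at least 1 on the log2 scale. A gene of the lists is not reported here.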

Additional observations from a re-analysis of the deposited data

Results flagged for a closer look

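The effect of IFNg beside ABBV-744 differed from its effect beside DMSO for several members, by the interaction term of the edgeR fit (quasi-likelihood, p adjusted by Benjamini-Hochberg). Positive values mean a larger response to IFNg beside the inhibitor. Over all genes the median interaction was -0.14 at 50 nM and -0.088 at 500 nM, and Pearson's r with GC content across genes was -0.73 and -0.62.

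At 50 nM the interaction was 1.03 for IFNGR1 (adjusted p = 3.92e-06) and 1.49 for JAK2 (adjusted p = 0.00259), the 2 members with the lowest GC content. After the GC correction these were 0.26 (adjusted p = 0.168) and 0.31 (adjusted p = 0.64). For IFNGR2 it was -0.42 (adjusted p = 0.0101, corrected -0.11, adjusted p = 0.582), and the call was lost without replicate 1 of IFNg with ABBV-744 (-0.34, adjusted p = 0.0531). For STAT2 it was -0.64 (adjusted p = 0.000824, corrected -0.28, adjusted p = 0.148). JAK1 at 0.49 (adjusted p = 0.00466, corrected 0.57, adjusted p = 0.00079) and STAT3 at -0.66 (adjusted p = 2.09e-05, corrected -0.31, adjusted p = 0.0179) were called both ways.

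At 500 nM the interaction was 0.62 for IFNGR1 (adjusted p = 0.00308, corrected 0.05, adjusted p = 0.847). STAT2 at -0.73 (adjusted p = 0.000306, corrected -0.43, adjusted p = 0.0169) and STAT3 at -0.70 (adjusted p = 1.26e-05, corrected -0.40, adjusted p = 0.000804) were called both ways. The other 3 calls were lost with the correction and without several single libraries. IFNGR2 at -0.38 (adjusted p = 0.0362, corrected -0.10, adjusted p = 0.624) was lost without replicate 2 or 3 of DMSO, ABBV-744 or IFNg, or replicate 1 or 3 of the combined group (-0.38 to -0.30, adjusted p from 0.0531 to 0.137). JAK2 at 0.94 (adjusted p = 0.0371, corrected 0.04, adjusted p = 0.959) was lost without DMSO replicate 2 or 3, ABBV-744 replicate 1 or 2, IFNg replicate 1, or replicate 1 or 2 of the combined group (0.83 to 1.00, adjusted p from 0.0509 to 0.0881). SOCS3, with 1 to 18 counts in a library, stood at -1.70 (adjusted p = 0.0365, corrected -1.34, adjusted p = 0.143). It was lost without DMSO replicate 1 or 2, ABBV-744 replicate 2 or 3, IFNg replicate 3, or replicate 1 or 3 of the combined group (-1.68 to -1.36, adjusted p from 0.0662 to 0.131).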

How the results depend on the processing

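RLE scaling, unstranded counts and at least 10 counts in every library turned no difference called in the main or the alternative fit, and neither did DESeq2. Turns of differences called in neither fit are not listed here. JAK2 for ABBV-744 at 50 nM vs DMSO is one of these (-0.15, GC-corrected 0.20). The GC correction changed most: it turned the log2 fold change of IFNGR1 to -0.12, -0.18 and -0.29 for IFNg with ABBV-075, ABBV-744 at 50 nM and ABBV-744 at 500 nM vs IFNg, and to -0.14 for IFNg with ABBV-744 at 500 nM vs ABBV-744 at 500 nM. STAT3 turned to 0.00097 for IFNg with ABBV-744 at 500 nM vs IFNg and to 0.26 vs ABBV-744 at 500 nM. With the replicate block added these were -0.12, -0.18, -0.29, -0.14, 0.0011 and 0.26. Members called fell with the correction, with or without the replicate block, from 6 to 2 for IFNg with ABBV-744 at 50 nM vs IFNg and for both ABBV-744 interactions. DESeq2 called 3 members for the interaction at 500 nM. For IFNg with ABBV-075 vs ABBV-075, where 1 was called, there were 2 without a filter, with the replicate block, with the GC correction or with both, and 3 with all 24 libraries. The correction with the replicate block left 1 of 3 calls for ABBV-744 at 50 nM vs DMSO.

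The numbers did not pair the libraries. The replicate block alone called 1 member, JAK1, instead of 0 between the ABBV-744 doses without IFNg and left the other counts within 1 of the values above. Leaving out 1 library gave 1 to 3 calls for ABBV-744 at 50 nM vs DMSO (1 without DMSO replicate 2 or 3 or ABBV-744 replicate 3) and 0 to 4 for IFNg with ABBV-075 vs ABBV-075 (0 without replicate 2 of either group, 4 without ABBV-075 replicate 3). It gave 0 to 1 for the ABBV-075 interaction and 3 to 5 for the ABBV-744 interaction at 500 nM (3 without DMSO replicate 2, ABBV-744 replicate 2 or replicate 1 of the combined group). The causes were not tested. Depth limits SOCS3 and CISH, which had at most 18 and 7 counts in a library.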
